A study of Mus musculus with 9 samples.

Results

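The genes described here are those of fatty acid oxidation and ketone use, 42 genes chosen by symbol for fatty acid uptake, beta-oxidation, ketone oxidation and targets of peroxisome proliferator-activated receptors (PPARs), among 18272 genes in the table of the series. RNA-seq was performed on the tibia of 9 female C57BL/6J mice, with 1 library per mouse. The 3 NGT mice had normal glucose tolerance and are labelled with saline treatment, and the methods describe citrate vehicle for this group in place of STZ. The 3 T1D mice had type 1 diabetes induced by streptozotocin (STZ), which kills pancreatic beta cells, and received saline. The 3 Lira mice had the same STZ-induced diabetes and were treated with liraglutide, a drug that activates the GLP-1 receptor. Lira mice 1 and 2 are labelled with 8 weeks of treatment and Lira mouse 3 with 9 weeks. STZ diabetes is a chemical model without the autoimmunity of human type 1 diabetes. All 42 genes passed the filter on low counts (at least 10 counts in at least 3 libraries), which 13960 of the 18272 genes passed.

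Fatty acids are freed from circulating triglycerides, taken up, activated to acyl-CoA, carried into mitochondria as carnitine esters and shortened by repeated rounds of beta-oxidation, whose electrons enter the respiratory chain through electron transfer flavoprotein. Ketone bodies, which the liver makes from fatty acids when insulin is low, are oxidized in other tissues by a short mitochondrial route. Both are fuels of skeletal muscle and heart, and PPAR-alpha, PPAR-delta and the coactivator PGC-1alpha are known to raise many of these genes in fasting and in diabetes.

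Promoter sequence is shown for the 3 genes with the lowest p-values between T1D and NGT mice, Oxct1, Ppara and Ppargc1a, and for 2 genes that hold letters of the searched nuclear receptor motifs, Acsl6 and Ucp3. Each run is the 250 bases before the RefSeq start on GRCm38.p6, written 5′ to 3′ on the strand of the gene, and capitals mark a motif match on either strand. The positions are chr15:4026178-4026427 (plus strand) for Oxct1, chr15:85735526-85735775 (plus strand) for Ppara, chr5:51567726-51567975 (minus strand) for Ppargc1a, chr11:54303574-54303823 (plus strand) for the first of the 3 Acsl6 starts and chr7:100472741-100472990 (plus strand) for Ucp3.
Oxct1: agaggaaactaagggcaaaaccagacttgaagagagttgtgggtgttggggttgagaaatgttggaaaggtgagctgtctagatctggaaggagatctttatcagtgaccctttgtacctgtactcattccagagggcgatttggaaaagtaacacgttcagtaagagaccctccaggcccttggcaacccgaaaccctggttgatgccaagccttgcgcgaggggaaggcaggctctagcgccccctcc
Ppara: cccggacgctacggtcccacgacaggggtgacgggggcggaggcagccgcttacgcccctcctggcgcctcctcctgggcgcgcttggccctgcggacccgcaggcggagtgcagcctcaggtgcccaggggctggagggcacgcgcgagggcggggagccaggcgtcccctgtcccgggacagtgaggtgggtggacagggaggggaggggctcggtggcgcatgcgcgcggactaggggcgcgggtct
Ppargc1a: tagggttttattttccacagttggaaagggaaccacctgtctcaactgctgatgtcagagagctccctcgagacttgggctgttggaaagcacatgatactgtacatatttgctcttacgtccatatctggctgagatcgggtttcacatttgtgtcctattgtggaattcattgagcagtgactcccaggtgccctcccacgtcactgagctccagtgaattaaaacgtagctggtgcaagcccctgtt
Acsl6: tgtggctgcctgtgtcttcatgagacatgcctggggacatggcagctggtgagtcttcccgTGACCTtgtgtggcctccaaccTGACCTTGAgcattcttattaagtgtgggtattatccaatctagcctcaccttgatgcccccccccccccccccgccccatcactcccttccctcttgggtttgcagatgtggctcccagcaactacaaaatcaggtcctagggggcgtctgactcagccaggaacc
Ucp3: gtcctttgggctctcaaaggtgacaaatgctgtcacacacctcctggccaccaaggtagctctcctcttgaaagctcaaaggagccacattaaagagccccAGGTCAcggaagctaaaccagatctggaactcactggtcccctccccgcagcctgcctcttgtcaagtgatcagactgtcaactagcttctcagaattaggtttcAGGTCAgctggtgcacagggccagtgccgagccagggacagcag
The promoters of 36 of the 42 genes matched by gene number, and Lpl, Angptl4, Cpt1b, Acaa2, Decr1 and Acat1 had no entry. Motifs were counted over the 250 bases before and the 50 bases after each start, a longer window than the runs shown. The nuclear receptor half-site AGGTCA, searched on both strands, was present in 8 of the 36 (Cd36, Acsl6, Plin5, Cpt1a, Acadvl, Acadm, Echs1 and Ucp3), which is 22.2%, against 18.1% of 27025 genes with a promoter in the table. The direct repeat AGGTCANAGGTCA, the letters of a PPAR element, was present in 0 of the 36 and in 0.0481% of these genes. The estrogen-related receptor letters TNAAGGTCA, which overlap the half-site, were present in Acsl6 only and in 1.43% of these genes. The FoxO letters TGTTTAC were present in 0 of the 36 and in 4.05% of these genes. The runs shown for Oxct1, Ppara and Ppargc1a hold none of the 4 motifs, which says nothing on sequence outside these windows.

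Library totals were 13086373 to 16528394 counts. Levels of single genes are given as CPM, counts relative to the TMM-scaled library size, summed levels of marker lists as CPM of the unscaled library total, and differences as log2 fold changes with their standard error (SE) from edgeR over all 9 libraries. The methods describe bones cleaned of muscle, and a list of 23 skeletal muscle markers took 14.4% (T1D mouse 1) to 27.0% (NGT mouse 3) of the counts. Erythroid markers summed to 351 to 33024 CPM, neutrophil markers to 12.7 to 6334 CPM and osteoblast and osteocyte markers to 99.9 to 4627 CPM, and all of these lists differed between mice of the same group. The liver markers Ttr and Apoa1 and the brown fat marker Ucp1 were too low to be tested. The other liver markers, Alb, Apoc3 and Serpina1a, were tested, and the liver list summed to 0.494 to 33.6 CPM. The other brown fat markers, Cidea, Dio2 and Elovl3, were tested too, and that list summed to 2.38 to 24.0 CPM. In bulk tissue, fewer cells of a type and less RNA per cell cannot be told apart. For 9 of the 42 genes (Acot1, Acot2, Eci1, Eci2, Fabp3, Lpl, Mlycd, Pdk4 and Slc27a1) the deposited counts were not whole numbers in any of the 9 libraries, so that the authors' counting may have divided reads between features, and their levels carry that limit. The sources describe each library as 1 tibia sample, and p-values measure the spread between these samples.

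The fatty acid and ketone genes differed widely in level. On the deposited FPKM scale, which corrects for transcript length, Fabp3, the fatty acid-binding protein of heart and muscle, had the highest median over the 9 mice (872), followed by Pdk4 (328), Pdk2 (284) and Lpl (239). The lowest medians were those of Ehhadh (3.68), Ppara (3.83), Acot1 (4.42) and Cpt1a (4.84). The ratio of the highest to the lowest mouse ranged from 1.67 for Ppard to 20.3 for Pdk4, and it was 15.2 for Ucp2, 13.6 for Ucp3 and 10.9 for Acot1. NGT mouse 2 had the highest CPM among the NGT mice for 39 of the 42 genes, against 33.8% of all tested genes. T1D mouse 3 was the highest T1D mouse for 29 (30% of all tested genes) and Lira mouse 2 the highest Lira mouse for 31 (36.7%), whereas Lira mouse 3 was the lowest Lira mouse for 37 (37% of all tested genes). The map of all genes by mouse shows these columns.

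**Figure D1:**
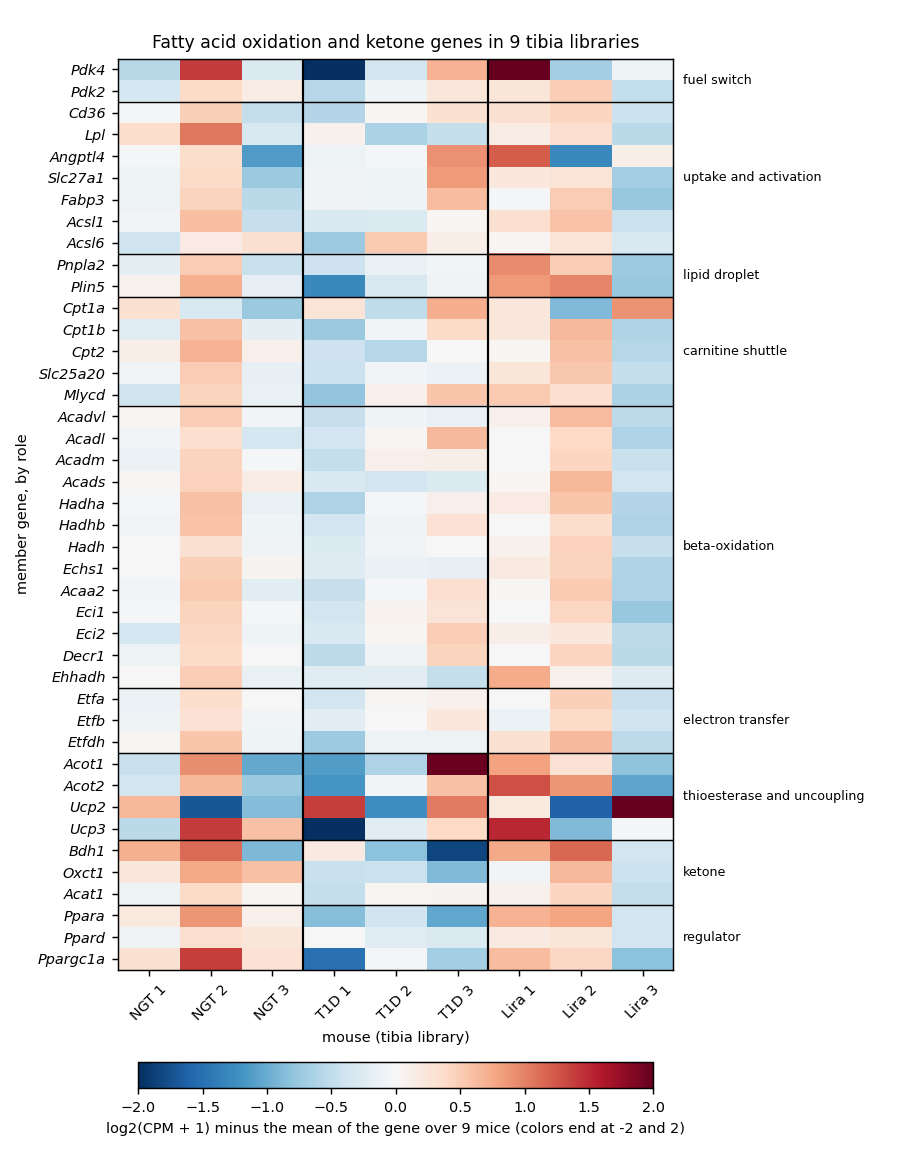
Heat map of the 42 genes (rows, grouped by role) in the 9 libraries (columns), colored by log2(CPM + 1) minus the mean of the gene over the 9 mice. NGT mouse 2 and Lira mouse 2 are red in most rows and T1D mouse 1 and Lira mouse 3 blue, while Ucp2 runs the other way.

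The first comparison asked which genes differed in diabetes, T1D against NGT. None of the 42 genes passed the test (adjusted p under 0.05 and fold over 2, quasi-likelihood test of edgeR, Benjamini-Hochberg over 13960 genes), and percent called among all genes was 0. The lowest adjusted p among the 42 was 0.977. At an unadjusted p under 0.05 there were 3 genes, all lower in T1D mice, Oxct1, Ppara and Ppargc1a, which is 7.14% of the 42, against 1.6% of all tested genes in that direction and 3.95% in either. DESeq2 called 0 genes with the fold threshold and 2 genes at an adjusted p under 0.05 alone, neither of them among the 42. It gave no adjusted p to 12725 of the 13960 genes in this comparison. Its adjusted p of 0.0760 for Oxct1 was thus adjusted over the remaining genes only, unlike the 0.977 by edgeR. Of the 42 genes 18 had no adjusted p, Ppara, Ppargc1a and Bdh1 among them, so that these could not be called by it. In sign, 32 of the 42 genes were lower (47.9% of all tested genes were) and 10 higher, with a median log2 fold change of -0.20, where the median of all tested genes was 0.02. Without NGT mouse 2 the median of the 42 was 0.04 and 22 of them were higher, and without T1D mouse 1 the median was -0.06. Without T1D mouse 3 it was -0.39 with 38 genes lower, and without NGT mouse 1 -0.31 with 35 lower.

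The comparison of Lira with T1D mice asked which genes moved under liraglutide. Again 0 of the 42 genes and 0% of all genes passed the test, with a lowest adjusted p of 0.978 among the 42 by edgeR, and DESeq2 called 1 gene in all and 0 of the 42. At an unadjusted p under 0.05, Ppara and Oxct1 were higher in Lira mice, which is 4.76% of the 42, against 1.55% of all tested genes in that direction and 3.33% in either. By sign 32 genes were higher (55.3% of all tested genes were) and 10 lower, with a median of 0.23 against 0.04 over all tested genes. The 2 comparisons share the T1D mice, so that their opposite signs are not separate observations. Without Lira mouse 3, the mouse with the 9-week label and the highest erythroid and neutrophil levels, 13 of the 42 genes (31%) were higher at an unadjusted p under 0.05, against 3.39% of all genes, and the median was 0.44. Without Lira mouse 2 the median was 0.03, without T1D mouse 1 it was 0.09, and without T1D mouse 3 it was 0.40 with 41 genes higher.

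**Figure D2:**
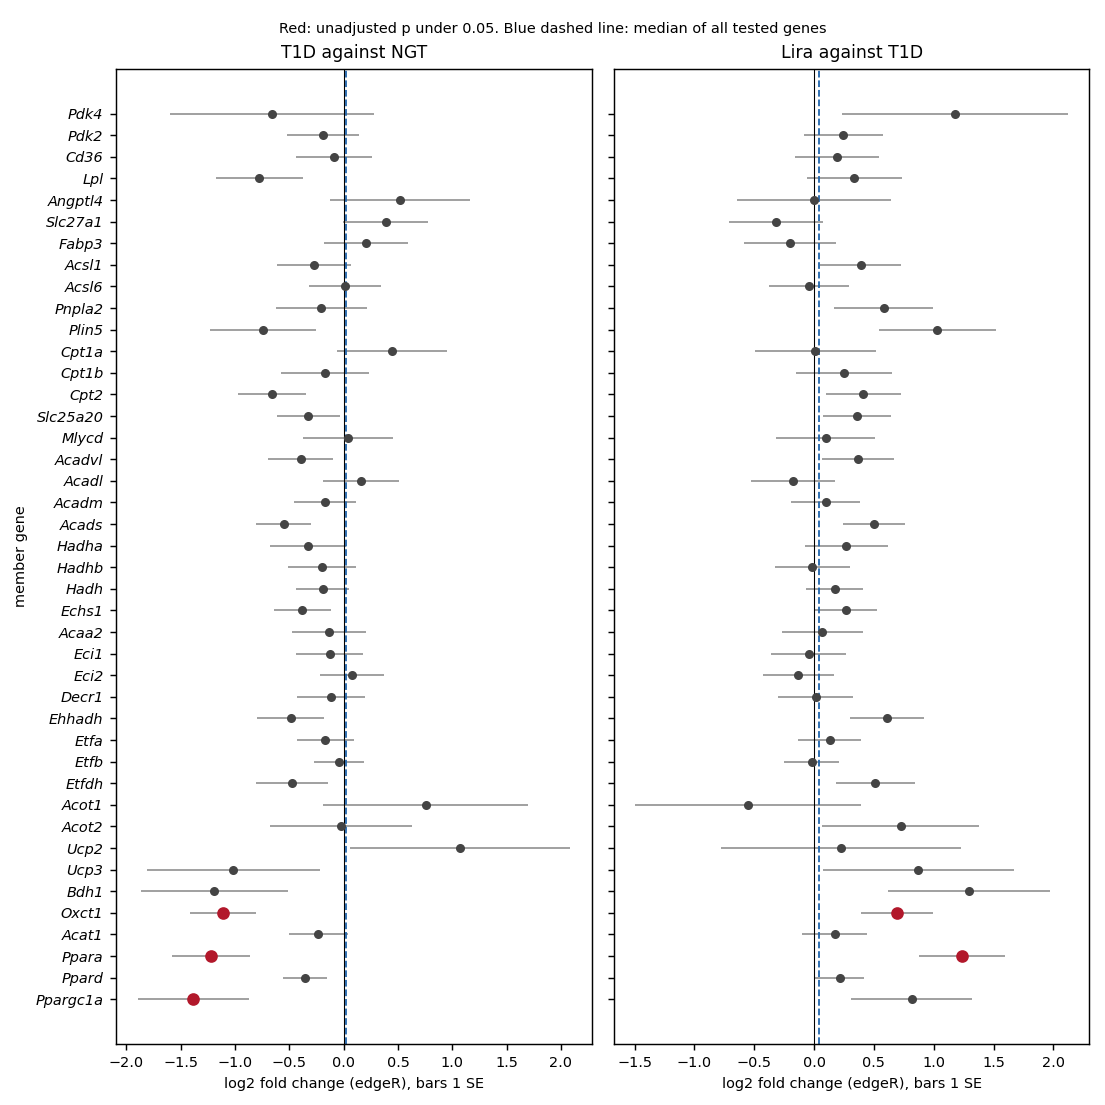
Log2 fold change of each of the 42 genes with 1 SE (horizontal axis) in T1D against NGT (left) and Lira against T1D (right), with red points for an unadjusted p under 0.05 and a dashed line at the median of all tested genes. Oxct1 and Ppara are red in both panels, on the left at -1.11 and -1.22 and on the right at 0.70 and 1.24.

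The enzymes of ketone oxidation had the lowest p-value of the set. Oxct1, the CoA transferase that activates acetoacetate and the rate-limiting step of ketone use, was measured at 475, 689 and 611 CPM in NGT mice 1 to 3, 299, 301 and 220.0 CPM in T1D mice 1 to 3, and 392, 634 and 302 CPM in Lira mice 1 to 3. The T1D mice lay below all NGT mice, and below all Lira mice, although the lowest Lira mouse (302 CPM) and the highest T1D mouse (301 CPM) were nearly equal. The log2 fold change was -1.11 (SE 0.30) in T1D against NGT, with an unadjusted p of 0.00556 and an adjusted p of 0.977 by edgeR. In Lira against T1D it was 0.70 (SE 0.30), with an unadjusted p of 0.0474, which was 0.0602 to 0.223 when Lira mouse 1 or 2 or any of the T1D mice was left out. On the mean CPM of each group, T1D was 273 ± 46.2, NGT 592 ± 108 and Lira 443 ± 172 (SD, n = 3 each). Exact permutation of the mice gave a two-sided p of 0.1 for both comparisons, the smallest that 3 against 3 allow.

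Bdh1, which oxidizes beta-hydroxybutyrate to acetoacetate, was measured at 35.6, 48.2 and 11.1 CPM in NGT mice 1 to 3, 24.4, 11.8 and 5.27 CPM in T1D mice 1 to 3, and 37.0, 48.8 and 16.5 CPM in Lira mice 1 to 3. The groups overlapped in both comparisons, because NGT mouse 3 and Lira mouse 3 were low. The log2 fold change was -1.19 (SE 0.68) in T1D against NGT and 1.30 (SE 0.68) in Lira against T1D. Acat1, the thiolase that splits acetoacetyl-CoA, was measured at 243, 339.9 and 266 CPM in NGT mice 1 to 3, 186, 266 and 269.6 CPM in T1D mice 1 to 3, and 276, 351 and 187 CPM in Lira mice 1 to 3. Its groups overlapped, and its log2 fold changes were -0.23 (SE 0.27) and 0.17 (SE 0.27), smaller than those of Oxct1 and Bdh1.

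Among the regulators, Ppara encodes the fatty acid-sensing nuclear receptor PPAR-alpha. It was measured at 33.7, 55.4 and 31.8 CPM in NGT mice 1 to 3, 15.9, 22.2 and 13.8 CPM in T1D mice 1 to 3, and 48.2, 51.7 and 22.3 CPM in Lira mice 1 to 3. All T1D mice lay below all NGT mice, and below all Lira mice, although T1D mouse 2 (22.2 CPM) and Lira mouse 3 (22.3 CPM) were nearly equal. The log2 fold change was -1.22 (SE 0.36) in T1D against NGT (unadjusted p = 0.00875) and 1.24 (SE 0.36) in Lira against T1D (unadjusted p = 0.00821), with adjusted p of 0.977 and 0.978 by edgeR. Ppargc1a, the coactivator of mitochondrial genes, was measured at 70.3, 149.8 and 69.3 CPM in NGT mice 1 to 3, 19.6, 56.1 and 35.2 CPM in T1D mice 1 to 3, and 87.9, 75.9 and 31.7 CPM in Lira mice 1 to 3. T1D mice lay below NGT mice without overlap, whereas Lira mouse 3 lay within the T1D range. Its log2 fold change was -1.38 (SE 0.51) in T1D against NGT (unadjusted p = 0.0250) and 0.82 (SE 0.51) in Lira against T1D (unadjusted p = 0.142). Without NGT mouse 2 the first was -0.92, with an unadjusted p of 0.108, without T1D mouse 1 it was -1.08 (unadjusted p = 0.0739) and without T1D mouse 3 -1.35 (unadjusted p = 0.0645). Ppard, the PPAR widespread in muscle, varied least of the 42 genes, at 39.0 to 65.1 CPM, with log2 fold changes of -0.36 (SE 0.21) and 0.21 (SE 0.21).

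**Figure D3:**
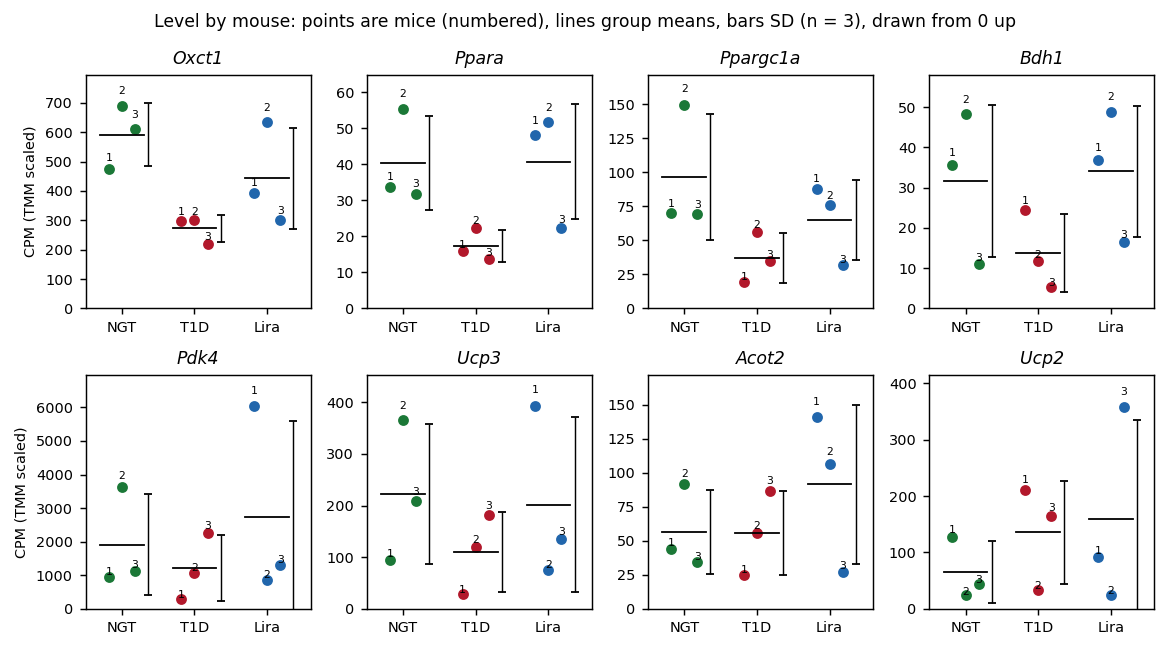
CPM of 8 genes by mouse (vertical axes from 0), with points for mice labelled by number, lines for group means and bars for the SD (n = 3). The T1D points of Oxct1, Ppara and Ppargc1a lie below the NGT points, while the groups of Bdh1, Pdk4, Ucp3, Acot2 and Ucp2 overlap.

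Across the set, 9 of the 42 genes (21.4%) had all T1D mice below all NGT mice, against 5.08% of all tested genes. They were the carnitine transferase Cpt2, the dehydrogenases Acadvl and Acads, the hydratase Echs1, the peroxisomal bifunctional enzyme Ehhadh, the electron acceptor Etfdh, and Oxct1, Ppara and Ppargc1a. None of the 42 had all T1D mice above all NGT mice, against 3.52% of all tested genes. Between Lira and T1D, Oxct1 and Ppara did not overlap (4.76%, against 3.74% of all tested genes).

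The labels name no pairs. The numbers of NGT and T1D mice were taken to pair them only because same-numbered mice deviated together in these same data. Differently numbered mice of other groups could deviate together as much (Lira mouse 3 with NGT mouse 1, r of 0.780). The pairing is therefore uncertain, and so are the differences within pairs and the p-values with the block given here. On the log2(CPM + 1) scale, T1D minus NGT within pairs 1 to 3 was -1.04, -1.28 and -1.15 for Ppara and -0.67, -1.19 and -1.47 for Oxct1. It was -1.79, -1.40 and -0.96 for Ppargc1a and -0.53, -1.94 and -0.95 for Bdh1, so that these 4 genes were lower in the T1D mouse of each pair. In all, 12 of the 42 genes (28.6%) were lower in every pair, against 19% of all tested genes, and only Ucp2 was higher in every pair (19.2% of all tested genes). The 12 include the 9 genes without overlap given above, Oxct1, Ppara and Ppargc1a among them. Those are lower in every pair however the mice are paired, so this adds nothing for them. The others of the 12 were Lpl, Ucp3 and Bdh1. With the replicate block in the fit of these 6 mice, an analysis added after seeing the data, 10 of the 42 genes (23.8%) were lower at an unadjusted p under 0.05, against 5.92% of all tested genes, and Ucp2 was higher (8.25% of all tested genes). The lowest adjusted p among the 42 with this block was 0.229 by edgeR, and 0 genes passed. With the block in the fit of all 9 mice, 4 of the 42 (9.52%) were lower at an unadjusted p under 0.05, Bdh1 joining the other three, against 2.35% of all tested genes.

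The fuel switch genes encode kinases that turn off pyruvate dehydrogenase and so favor fatty acids over glucose. Pdk4, the isoform induced by fasting and a classical PPAR target, was measured at 948, 3641 and 1135 CPM in NGT mice 1 to 3, 297, 1073 and 2254 CPM in T1D mice 1 to 3, and 6029, 862 and 1296 CPM in Lira mice 1 to 3. One mouse in each group was above the others, NGT mouse 2, T1D mouse 3 and Lira mouse 1, and the groups overlapped. The log2 fold change was -0.66 (SE 0.94) in T1D against NGT and 1.18 (SE 0.95) in Lira against T1D, with unadjusted p of 0.500 and 0.246. Without Lira mouse 1 the second was -0.16. The same highest mouse in all 3 groups was found for 6 of the other 41 genes (14.6%), Angptl4, Pnpla2, Mlycd, Acot1, Acot2 and Ucp3, against 3.74% of all tested genes. Pdk2, the constitutive isoform, ranged from 440.0 to 923 CPM, with log2 fold changes of -0.19 (SE 0.33) and 0.24 (SE 0.33).

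The thioesterases and uncoupling proteins varied widely between mice of one group. Ucp3, the uncoupling protein of muscle mitochondria, was measured at 94.7, 365 and 208 CPM in NGT mice 1 to 3, 29.0, 119.6 and 182 CPM in T1D mice 1 to 3, and 394, 74.4 and 135 CPM in Lira mice 1 to 3. Its groups overlapped, with log2 fold changes of -1.01 (SE 0.80) and 0.87 (SE 0.80), and the latter was -0.07 without Lira mouse 1. Ucp2, the uncoupling protein of blood and immune cells among others, was measured at 127, 23.7 and 43.1 CPM in NGT mice 1 to 3, 210.1, 33.0 and 164 CPM in T1D mice 1 to 3, and 91.8, 25.2 and 359 CPM in Lira mice 1 to 3. Lira mouse 3 and T1D mice 1 and 3 were the highest, NGT mouse 2 and Lira mouse 2 the lowest, and the groups overlapped, with log2 fold changes of 1.07 (SE 1.02) and 0.22 (SE 1.00).

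Acot2, a mitochondrial acyl-CoA thioesterase, was measured at 43.7, 91.8 and 34.0 CPM in NGT mice 1 to 3, 24.7, 55.5 and 86.5 CPM in T1D mice 1 to 3, and 141, 107 and 27.3 CPM in Lira mice 1 to 3. Acot1, its cytosolic near-copy, was measured at 5.71, 16.3 and 3.48 CPM in NGT mice 1 to 3, 3.21, 4.98 and 34.9 CPM in T1D mice 1 to 3, and 14.9, 10.2 and 4.25 CPM in Lira mice 1 to 3. In both genes T1D mouse 3 was the highest T1D mouse, and the groups overlapped. Both are among the genes whose counts were not whole, and reads shared between these paralogs may have been divided by the authors' counting, so each is uncertain. The log2 fold changes in T1D against NGT were -0.02 (SE 0.65) for Acot2 and 0.75 (SE 0.95) for Acot1, and in Lira against T1D 0.72 (SE 0.65) and -0.55 (SE 0.94).

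In the group of 7 uptake and activation genes, 4 were higher and 3 lower in T1D than in NGT mice, with a median log2 fold change of 0.01. Lpl, the lipase that frees fatty acids from lipoproteins, was measured at 1225, 1981 and 766 CPM in NGT mice 1 to 3, 1016, 614 and 689 CPM in T1D mice 1 to 3, and 1064, 1206 and 660.2 CPM in Lira mice 1 to 3. NGT mice 1 and 2 and Lira mice 1 and 2 were the high ones besides T1D mouse 1, and the groups overlapped, with log2 fold changes of -0.78 (SE 0.40) and 0.34 (SE 0.40). Angptl4, a secreted inhibitor of Lpl and a PPAR target, was measured at 16.6, 22.0 and 7.28 CPM in NGT mice 1 to 3, 15.8, 16.8 and 33.2 CPM in T1D mice 1 to 3, and 40.7, 6.39 and 18.5 CPM in Lira mice 1 to 3. T1D mouse 3 and Lira mouse 1 were highest, and Lira mouse 2 was lowest. Its log2 fold changes were 0.52 (SE 0.65) and -0.0033 (SE 0.64).

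Cd36, the fatty acid translocase, was measured at 498, 700.0 and 361 CPM in NGT mice 1 to 3, 334, 510.0 and 623 CPM in T1D mice 1 to 3, and 624, 679 and 373 CPM in Lira mice 1 to 3. Fabp3 was measured at 445, 654 and 328 CPM in NGT mice 1 to 3, 458, 451 and 734 CPM in T1D mice 1 to 3, and 467, 682 and 283 CPM in Lira mice 1 to 3. Both overlapped between groups, with log2 fold changes in T1D against NGT of -0.09 (SE 0.35) for Cd36 and 0.20 (SE 0.39) for Fabp3. Slc27a1, a fatty acid transport protein, ranged from 98.3 to 299.7 CPM, and the acyl-CoA synthetases Acsl1 and Acsl6 ranged from 419.5 to 881 CPM and 23.3 to 56.8 CPM. Both lipid droplet genes were lower in T1D and higher in Lira mice by sign. Plin5, which tethers droplets to mitochondria, was measured at 45.8, 71.9 and 38.6 CPM in NGT mice 1 to 3, 17.2, 34.8 and 41.2 CPM in T1D mice 1 to 3, and 78.9, 86.3 and 25.4 CPM in Lira mice 1 to 3. Lira mice 1 and 2 and NGT mouse 2 were high, Lira mouse 3 was within the T1D range, and the log2 fold changes were -0.74 (SE 0.49) and 1.03 (SE 0.49) (unadjusted p = 0.164 and 0.0665). Pnpla2, the triglyceride lipase of droplets, ranged from 329 to 1049 CPM, with log2 fold changes of -0.21 (SE 0.42) and 0.58 (SE 0.42).

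Of the 5 carnitine shuttle genes, 2 encode isoforms of carnitine palmitoyltransferase 1. Cpt1b, the muscle isoform, was measured at 299.9, 531 and 313 CPM in NGT mice 1 to 3, 212, 342 and 461 CPM in T1D mice 1 to 3, and 416, 558 and 233 CPM in Lira mice 1 to 3. Cpt1a, the isoform of liver and many other tissues, was measured at 24.0, 15.4 and 11 CPM in NGT mice 1 to 3, 23.0, 13.2 and 32.5 CPM in T1D mice 1 to 3, and 22.6, 9.97 and 36.6 CPM in Lira mice 1 to 3. Lira mouse 3 was the highest mouse for Cpt1a and the lowest Lira mouse for Cpt1b, and Lira mouse 2 was the lowest mouse for Cpt1a and the highest for Cpt1b, whereas T1D mouse 3 was the highest T1D mouse for both. Log2 fold changes in T1D against NGT were -0.17 (SE 0.40) for Cpt1b and 0.45 (SE 0.51) for Cpt1a. Cpt2, which reforms acyl-CoA inside the mitochondrion, ranged from 51.0 to 125 CPM with -0.66 (SE 0.31) in T1D against NGT, the carrier Slc25a20 from 64.6 to 131 CPM, and Mlycd, which removes the Cpt1 inhibitor malonyl-CoA, from 57.5 to 147 CPM.

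Of the 13 beta-oxidation genes, 11 were lower in T1D than in NGT mice by sign, with a median log2 fold change of -0.19, and 9 were higher in Lira than in T1D mice, with a median of 0.10. Hadha, a subunit of the mitochondrial trifunctional protein, was measured at 502, 769 and 460.4 CPM in NGT mice 1 to 3, 332, 503 and 545 CPM in T1D mice 1 to 3, and 572, 752 and 338 CPM in Lira mice 1 to 3. Its groups overlapped, with log2 fold changes of -0.33 (SE 0.35) and 0.27 (SE 0.35). Acads, the short-chain acyl-CoA dehydrogenase, was measured at 46.4, 63.1 and 50.4 CPM in NGT mice 1 to 3, 36.6, 34.8 and 37.5 CPM in T1D mice 1 to 3, and 46.7, 72.6 and 35.1 CPM in Lira mice 1 to 3. All T1D mice lay below all NGT mice, Lira mouse 3 lay within the T1D range, and the log2 fold changes were -0.55 (SE 0.26) and 0.50 (SE 0.26) (unadjusted p = 0.0600 and 0.0828). Ehhadh was measured at 11.2, 16.3 and 10.1 CPM in NGT mice 1 to 3, 9.35, 9.62 and 7.80 CPM in T1D mice 1 to 3, and 19.5, 12.1 and 9.30 CPM in Lira mice 1 to 3. Its T1D mice lay below its NGT mice, and the log2 fold changes were -0.49 (SE 0.31) and 0.61 (SE 0.31).

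The other dehydrogenases of very long, long and medium chains, Acadvl, Acadl and Acadm, had log2 fold changes in T1D against NGT of -0.40, 0.16 and -0.17. Hadhb, Hadh, Echs1 and the thiolase Acaa2, which carry out later steps of the cycle, had -0.20, -0.19, -0.38 and -0.14. Eci1, Eci2 and Decr1, the auxiliary enzymes for unsaturated fatty acids, had -0.13, 0.08 and -0.11. Etfa and Etfb, the subunits of electron transfer flavoprotein, and Etfdh, which passes its electrons to ubiquinone, had -0.17, -0.05 and -0.48. None of these reached an unadjusted p of 0.05.

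In Lira against NGT mice, 20 of the 42 genes were higher and 22 lower by sign (44.5% of all tested genes were lower), with a median log2 fold change of -0.02 (0.04 over all tested genes), and 0 passed the test (0% of all genes by edgeR) or an unadjusted p under 0.05, where 0.781% of all tested genes reached the latter. This balance turned with single mice: the median was 0.21 with 37 genes higher without NGT mouse 2, 0.19 with 36 higher without Lira mouse 3, and -0.24 with 31 lower without Lira mouse 2. Ppara had 0.01 (SE 0.36) and Oxct1 -0.42 (SE 0.30). Leaving out Lira mouse 2 gave Oxct1 -0.77, with an unadjusted p of 0.0218. When the 6 diabetic mice were set together against the 3 NGT mice, 30 genes were lower by sign (45% of all tested genes were) and the median was -0.11. Without NGT mouse 2 the median was 0.07 with 31 genes higher, and without Lira mouse 3 it was -0.0045 with 23 lower. Again 0 genes, 0% of all, passed by edgeR, and Oxct1 (-0.77, SE 0.25) and Ppargc1a (-0.98, SE 0.42) reached an unadjusted p under 0.05, against 0.974% of all tested genes in that direction and 1.8% in either (Oxct1 had 0.0665 without NGT mouse 2). Ppargc1a had -0.51 without NGT mouse 2, with an unadjusted p of 0.286, and its unadjusted p was 0.0594 to 0.0795 when T1D mouse 1 or 3 or Lira mouse 2 or 3 was left out. For Oxct1 exact permutation of the mice gave a two-sided p of 0.0714, where the smallest possible is 0.0238.

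The level of muscle markers in the libraries moved with these genes. The level of the muscle list, its mean log2(CPM + 1), was 12.0, 12.9 and 12.6 in NGT mice 1 to 3, 11.6, 12.5 and 12.6 in T1D mice 1 to 3, and 12.7, 12.8 and 12.1 in Lira mice 1 to 3. T1D mouse 1, NGT mouse 1 and Lira mouse 3 were the low ones, and the groups overlapped. In a fit of the slope on this level within groups, 14 of the 42 genes (33.3%) passed an adjusted p under 0.05 by edgeR, all with a positive slope, where 10.2% of all tested genes passed in that direction and 21.2% in either. The 14 were Pdk2, Acsl6, Plin5, Cpt1b, Mlycd, Acadm, Hadha, Eci1, Eci2, Decr1, Etfdh, Acot2, Acat1 and Ppargc1a. By sign 39 of the 42 slopes were positive (49.2% over all tested genes), with a median of 0.70 log2 units per log2 unit of the muscle level, and the median of all tested genes was -0.01.

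Mlycd had a slope of 1.23 (SE 0.22), with an adjusted p of 0.0129, and Ppargc1a one of 1.41 (SE 0.33), with an adjusted p of 0.0260 by edgeR. These 2 passed in all 6 fits of the slope that kept every mouse. Pdk4 had the largest positive slope, 2.33 (SE 0.83), and its adjusted p was 0.0795. Negative slopes were those of Ucp2 (-2.53, SE 0.80, adjusted p = 0.0589), Cpt1a (-0.78, SE 0.51) and Bdh1 (-0.36, SE 0.76). Oxct1 had 0.36 (SE 0.30) and Ppara 0.68 (SE 0.34), and neither passed. With the replicate block 3 of the 42 genes (7.14%) passed, against 2.34% of all tested genes. With library sizes in place of TMM 3 (7.14%) passed, against 18.5% of all tested genes. Without NGT mouse 1 or without T1D mouse 1 only 1 (2.38%) passed, against 3.33% and 9.58% of all tested genes. The share among the 42 was also below that of all tested genes without NGT mouse 2 (7.14% against 13%), without T1D mouse 3 (23.8% against 25.8%) and without Lira mouse 3 (7.14% against 9.91%). Library sizes moved the median slope of all genes by -0.78, and against that median the 42 genes had a median of 1.37, where it was 0.72 with TMM, and 39 of them lay above it under both.

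**Figure D4:**
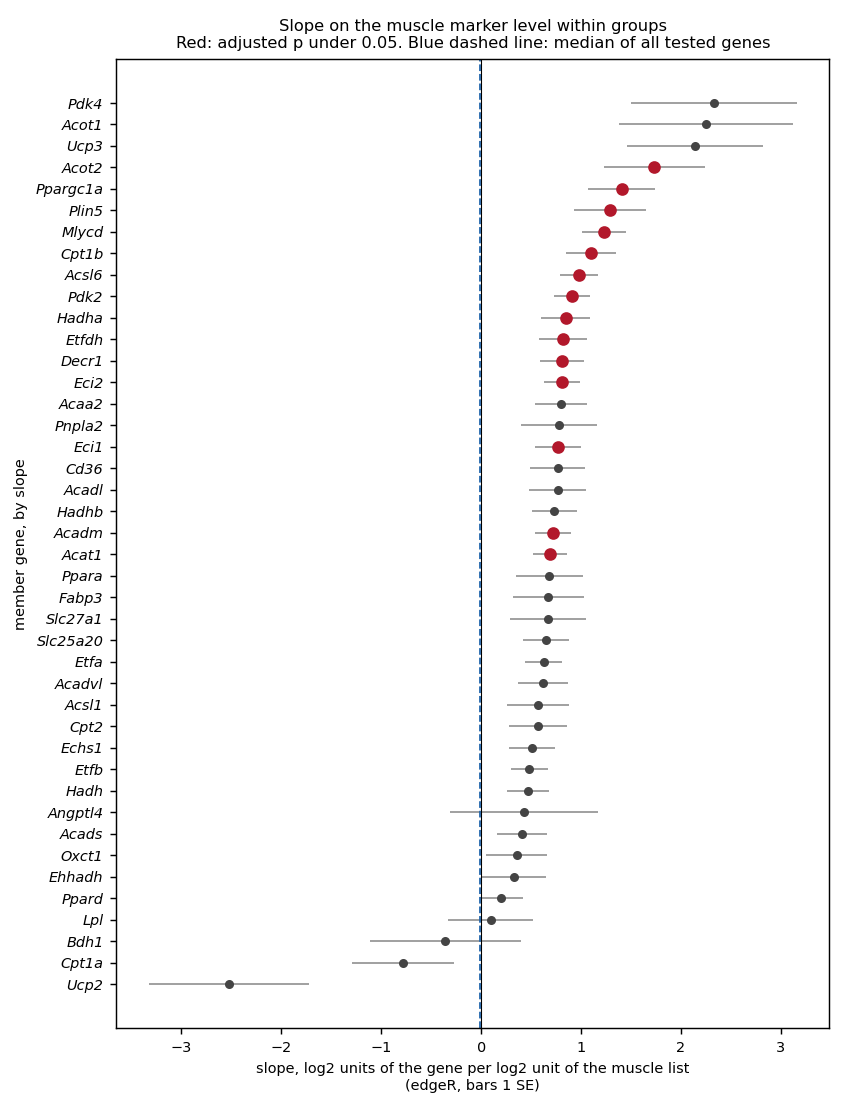
Slope of each of the 42 genes on the level of the muscle list within groups, with 1 SE (horizontal axis, log2 units per log2 unit), genes ordered by slope. The 14 red points have an adjusted p under 0.05, all to the right of 0, and Ucp2, Cpt1a and Bdh1 are the 3 genes to the left.

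With the muscle level as a covariate, the median log2 fold change of the 42 genes in T1D against NGT was -0.003, with 20 higher and 22 lower, where it was -0.20 without it. The 3 genes of lowest p remained lower in T1D mice, Oxct1 at -0.99 (SE 0.29), Ppara at -1.0 (SE 0.32) and Ppargc1a at -1.05 (SE 0.30), with unadjusted p of 0.0105, 0.0144 and 0.00859 and an adjusted p of 0.910 for each by edgeR. In Lira against T1D the median was 0.04 with the covariate, and Ppara had 0.97 (SE 0.33), Oxct1 0.55 (SE 0.30) and Ppargc1a 0.42 (SE 0.31). The macrophage list moved with the same contrasts. All 6 of its markers were higher in T1D than in NGT mice by sign (median log2 fold change 2.72, of which 4 at an unadjusted p under 0.05) and none was higher in Lira than in T1D mice (median -2.0). Its summed level was 123, 24.4 and 34.9 CPM in NGT mice 1 to 3, 956, 70.0 and 78.5 CPM in T1D mice 1 to 3 and 65.4 to 127 CPM in Lira mice, so that T1D mouse 1 stood apart and the other T1D mice lay within the NGT range. Without T1D mouse 1 its medians were 0.46, with none at an unadjusted p under 0.05, and 0.16. Its part in the result was not tested. In T1D against NGT all 7 adipocyte, all 12 erythroid, 9 of 10 osteoblast and osteocyte and 0 of 5 B cell markers were higher by sign, with medians of 0.75, 0.91, 0.71 and -0.37. In Lira against T1D 0 of 7 adipocyte, 12 of 12 erythroid, 13 of 13 neutrophil, 1 of 10 osteoblast and osteocyte and 5 of 5 B cell markers were, with medians of -0.97, 1.11, 1.12, -1.06 and 1.63. Of the 23 skeletal muscle markers, 5 were higher in T1D than in NGT mice (median -0.10) and 11 in Lira than in T1D mice (median -0.02). These directions also rested on single mice. In T1D against NGT 16 of the 23 muscle markers were higher without T1D mouse 1 (median 0.16) and 15 without NGT mouse 3 (median 0.07). Without T1D mouse 1 the adipocyte and the osteoblast and osteocyte medians were -0.45 and -0.42 in T1D against NGT and 0.19 and 0.23 in Lira against T1D. The erythroid median was -1.38 in T1D against NGT without T1D mouse 3, and in Lira against T1D the erythroid, neutrophil and B cell medians were -1.18, -1.10 and -0.38 without Lira mouse 3. The B cell median in T1D against NGT was 1.43 without NGT mouse 1. The list of 7 slow oxidative fiber markers summed to 435 to 6301 CPM in NGT, 801 to 10035 CPM in T1D and 1908 to 5642 CPM in Lira mice, highest in T1D mouse 1. Of these, 6 of 7 were higher in T1D than in NGT mice by sign (median 0.65), but 0 of 7 without T1D mouse 1 (median -0.59). In Lira against T1D 2 of 7 were higher (median -0.51), but 7 of 7 without T1D mouse 1 (median 0.72).

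On the level of marrow markers, the share of the genes that passed in either direction was below that of all tested genes, but not the share with a negative slope. On the mean level of the erythroid and neutrophil lists, which was 1.67 (NGT mouse 2) to 8.41 (Lira mouse 3), Ucp2 had a positive slope of 0.59 (SE 0.08), with an adjusted p of 0.00315, and Ppara a negative one of -0.18 (SE 0.04), with an adjusted p of 0.0301 by edgeR. These 2 are 4.76% of the 42 genes, against 7.99% of all tested genes, of which 7.64% had a positive and 0.351% a negative slope. Ppara alone is 2.38% of the 42. At an unadjusted p under 0.05 by edgeR, 11 of the 42 (26.2%) had a negative slope, against 6.73% of all tested genes. At the same threshold 2 (4.76%) had a positive slope, against 15.5%. Cpt1a followed Ucp2 in sign (0.24, SE 0.06, adjusted p = 0.0546), and 39 of the 42 slopes were negative (52.4% over all tested genes). Without T1D mouse 3, 19 of the 42 genes (45.2%) passed, against 14.5% of all tested genes, and with the replicate block 0 of the 42 and 0 of all genes passed. On the level of the adipocyte list 0 of the 42 genes passed, as did 0.086% of all tested genes, with a lowest adjusted p of 0.261 (Acsl6).

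Of 101 other genes of the pathway, 85 were tested, and 0 passed in any of the 4 comparisons between groups. At an unadjusted p under 0.05, T1D against NGT had Acot9 higher (0.32, SE 0.13) and Acox3, a peroxisomal acyl-CoA oxidase, lower (-0.33, SE 0.14), and Lira against T1D had Acot9 lower (-0.35, SE 0.13). These are 2.35% and 1.18% of the 85, below the 3.95% and 3.33% of all tested genes in the same comparisons. By sign 55 of the 85 were lower in T1D than in NGT mice, with a median of -0.19, where 47.9% of all tested genes were lower. Without NGT mouse 2 that median was -0.06, with 49 lower. In Lira against T1D 51 of the 85 were higher, with a median of 0.10, where 55.3% of all tested genes were higher. Without Lira mouse 2 the latter median was -0.02, with 45 lower.

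Slc16a1, the monocarboxylate carrier of lactate and ketone bodies, ranged from 50.9 to 130.1 CPM, with log2 fold changes of -0.04 (SE 0.29) and 0.49 (SE 0.29). Fabp4, Plin2 and Pparg, which are high in fat cells, had 0.60 (SE 0.41), 0.38 (SE 0.53) and 0.35 (SE 0.41) in T1D against NGT, opposite in sign to most of the 42 genes, and their levels were highest in T1D mouse 1, which was also the mouse of the highest adipocyte list (1466 CPM). Without T1D mouse 1 they had 0.21, -0.60 and -0.033. Acsl4, Acsl3 and Slc16a6 were the related genes of lowest p in Lira against NGT (-0.35, -0.62 and 0.71), none with an unadjusted p under 0.05. Acsl4 was the 1 related gene at an unadjusted p under 0.05 in all diabetic against NGT mice (-0.33), 1.18% of the 85 against 1.8% of all tested genes, followed by Acot13 (-0.36) and Bdh2 (0.95). Pdp2, a phosphatase that reactivates pyruvate dehydrogenase, had -0.90 (SE 0.43) in T1D against NGT, and Esrrg, an estrogen-related receptor, had 0.58 (SE 0.29) in Lira against T1D. On the muscle level 25 of the 85 related genes (29.4%) passed an adjusted p under 0.05 by edgeR, against 21.2% of all tested genes, 16 with a positive and 9 with a negative slope. Among them were Acacb (1.35, SE 0.21), the malonyl-CoA-forming carboxylase of muscle, and Crat (1.01, SE 0.17), carnitine acetyltransferase, with positive slopes, and Acaca (-2.24, SE 0.62), the carboxylase of fat synthesis, with a negative one.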

How the data were processed

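RNA was measured in 1 tibia library from each of 3 NGT, 3 T1D and 3 Lira mice, grouped by their labels. The authors deposited expected counts, estimated per gene from the aligned reads, not normalized and 30.2% of them not whole, and FPKM values, which the authors scaled for transcript length and library total and which were used here only to rank levels between genes. The build in the submitters' processing notes is mm9, and the aligner and the counting tool are not given in the sources used here. The table carries no coordinates. Promoter sequence and its positions are RefSeq's on GRCm38.p6 and were matched by gene number. Of the gene numbers, 17778 (97.3%) matched the RefSeq gene table.

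Counts were rounded and tested in R 4.3.3 with edgeR 4.0.16 (TMM, glmQLFit and glmQLFTest on 3 group means over all 9 libraries). The filter kept genes that reached 10 counts in 3 or more libraries. Between groups a gene passed with a Benjamini-Hochberg adjusted p under 0.05 and a fold over 2, and slopes passed with an adjusted p under 0.05. Slopes were fitted beside the group means on the mean log2(CPM + 1) of a marker list, which holds none of the 42 genes. The biological coefficient of variation was 0.433. Single genes were compared by two-sided exact permutation of the mice in scipy 1.17.1. A count of 0 allows up to 3 counts, 0.163 to 0.238 CPM by library.

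Checked by correlating the deviations from group means across genes, same-numbered NGT and T1D mice gave r of 0.583, 0.647 and 0.283, each over 0.1, so that their numbers were taken as pairs. T1D and Lira mice gave -0.244, 0.615 and 0.271, and NGT and Lira mice -0.173, 0.727 and 0.0125, and were not. Mice of differing numbers gave -0.697 to 0.0668 between NGT and T1D. Lira mouse 3 gave 0.780 with NGT mouse 1 and 0.412 with T1D mouse 1, so a high r does not require a shared number. The labels do not say what a number stands for, and the pairs are inferred from these same data.

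The 42 genes, the related genes and the marker lists were chosen with earlier results of these data known. Values by mouse are given for a fixed list of well-known genes and for the 4 of the 42, and 3 related genes, of lowest p in each comparison, or their fold change or range where the gene is related. A few genes covered by this rule are not reported here. Alternatives were DESeq2 1.42.0, library size in place of TMM, no filter, the replicate block, only the groups compared, a muscle covariate, no group means and leaving out each mouse. The fits were tested on simulated data.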

Additional observations from a re-analysis of the deposited data

How the results depend on the processing

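Between groups, the count of 0 genes that passed among the 42 did not change under any alternative that was run. Over all genes DESeq2 called 1 gene in Lira against T1D, and in T1D against NGT it gave no adjusted p to 18 of the 42. The slopes depended on the fit. On the muscle level, the number of the 42 genes that passed was 24 by DESeq2 (57.1%, against 29.2% of all tested genes), 3 with library sizes (7.14% against 18.5%), 3 with the replicate block (7.14% against 2.34%) and 23 without group means (54.8% against 28.6%), and 1 to 16 when 1 mouse was left out (1 without NGT mouse 1 and without T1D mouse 1). Over all genes it was 4076 by DESeq2, 2580 with library sizes, 3999 without group means, 327 with the block and 458 to 3585 when 1 mouse was left out. On the adipocyte level, the number of all genes was 546 by DESeq2 (1 of the 42), 34 with library sizes, 0 with the block, 68 without group means and 0 to 12 when 1 mouse was left out. On the erythroid and neutrophil level it was 1806 by DESeq2 (5 of the 42), 0 with the block (0 of the 42) and 446 to 2005 when 1 mouse was left out (1 to 19 of the 42, the highest without T1D mouse 3). The causes were not tested. Library sizes, which moved the median muscle slope of all genes by -0.78, left 34 positive and 8 negative slopes among the 42, where TMM gave 39 and 3, and turned those of Acads to -0.062 and of Oxct1 to -0.11, while 39 lay above the median of all genes under both. When 1 mouse was left out, the log2 fold change in Lira against T1D was -0.16 to 1.99 for Pdk4 and -0.071 to 1.44 for Ucp3 (both lowest without Lira mouse 1), and in Lira against NGT -0.15 (without Lira mouse 3) to 2.25 for Ucp2. Ehhadh and Acot1, among the lowest of the 42, rest on the fewest counts. The replicate block changed no call by adjusted p between groups. At an unadjusted p under 0.05 the block in the fit of all 9 mice added, besides Bdh1 in T1D against NGT, Bdh1 in Lira against T1D (1.39, unadjusted p = 0.00313 by edgeR), whose numbers were not taken as pairs, and Ppara in all diabetic against NGT mice (-0.61, unadjusted p = 0.0127).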
